A study of Mus musculus with 12 samples.

Results

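Extracellular nucleotides and adenosine act on a family of surface receptors, and 10 genes grouped with that system were followed in mouse eosinophils. They were 3 P2X ion channels (P2rx1, P2rx4, P2rx7), 3 P2Y receptors (P2ry2, P2ry10, P2ry14), 3 adenosine receptors (Adora2a, Adora2b, Adora3) and the ectonucleotidase Entpd1, also called CD39. P2ry10 carries a P2Y name, but it is a receptor for lysophosphatidylserine and not for a nucleotide. The 10 genes were chosen by name from the 54115 genes with a row in the tables. Each value is the sum of the estimated reads of all annotated transcripts of the gene. The eosinophils came from male FVB/NJ mice, wild type and without treatment, that ate chow and were 20 weeks old. There were 12 libraries from 5 mice in 3 groups of 4: gonadal adipose tissue (mice 2668, 2683, 2807 and 2846), subcutaneous adipose tissue (mice 2668, 2771, 2807 and 2846) and blood (mice 2668, 2683, 2771 and 2807). Fat had been digested for 45 min at 37 °C with 1 mg/mL collagenase type II, while blood came from cardiac puncture with no digestion given, so digestion and tissue cannot be told apart. Cells of every group had been sorted as live CD45+ CD11b+ Siglec-F+ cells. F4/80 was stained but is not part of that gate.

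ATP that leaves stressed or dying cells opens P2X channels. Both ATP and UTP activate P2Y receptors such as P2ry2, which couple to G proteins. Ectonucleotidases on the cell surface then break ATP and ADP down to AMP, further enzymes yield adenosine, and adenosine acts on its own receptors, of which Adora2a and Adora2b raise cyclic AMP and Adora3 lowers it. Eosinophils are known to move and to release mediators in response to nucleotides, and in fat they live beside macrophages, which use many of the same receptors.

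In eosinophils from either fat depot, P2rx7 and Adora2a were higher than in blood eosinophils, and Adora3, P2ry2 and P2ry14 were lower. P2rx7 was 16.5 to 17.9 times higher and Adora3 between 5.49 and 6.79 times lower. With the average transcript length as an offset the P2rx7 difference was smaller, at log2 fold changes of 2.36 in gonadal and 2.87 in subcutaneous eosinophils, against 4.16 and 4.04 without it. Among the adenosine receptors, Adora3 held most of the transcripts in blood and Adora2a most of them in 6 of the 8 fat libraries. P2rx1, P2rx4 and Adora2b did not pass the test in either comparison with blood, and no member passed it between the depots. Expression is given as CPM, the reads of a gene scaled by the size of its library after TMM scaling. A value after ± is the SD of 4 libraries, and adjusted p-values come from edgeR's quasi-likelihood test over 15367 genes with a threshold of 0.05.

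The start regions of P2rx7, Adora3 and P2ry2 are shown because these genes had the smallest adjusted p-values of the members. Each sequence is RefSeq's 250 bases before to 50 after an annotated start on GRCm38.p6, read 5′ to 3′ along the gene, with motif matches on either strand in capitals. The motif TGANTCA is the AP-1 element. The motif TGACGT is the core of the cyclic AMP response element. The motif AGATAA is a site of the GATA family. No match overlapped another. RefSeq gives 1 window for Adora3 and 2 each for P2rx7 and P2ry2. The P2rx7 window shown is the one at the 5′ end of the gene, and the P2ry2 window shown is the one whose start is that of P2ry2-201. The P2rx7 window, on the plus strand at chr5:122643677-122643976, held TGANTCA beginning 249 bases ahead of the start. The Adora3 window, on the plus strand at chr3:105904171-105904470, held TGANTCA from 98 bases before the start and AGATAA, read on the opposite strand, in its transcribed end. The P2ry2 window, on the minus strand at chr7:101011949-101012248, held none of the 3 motifs. The other P2rx7 window, at chr5:122650133-122650432, held AGATAA 58 bases before its start and no TGANTCA, and the other P2ry2 window, at chr7:101012004-101012303, held none of the 3.
P2rx7: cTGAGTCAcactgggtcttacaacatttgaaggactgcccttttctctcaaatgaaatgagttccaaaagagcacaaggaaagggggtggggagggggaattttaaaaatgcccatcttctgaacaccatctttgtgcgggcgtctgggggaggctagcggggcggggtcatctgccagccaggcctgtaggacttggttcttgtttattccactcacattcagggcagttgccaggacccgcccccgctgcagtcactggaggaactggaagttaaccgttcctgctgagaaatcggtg
Adora3: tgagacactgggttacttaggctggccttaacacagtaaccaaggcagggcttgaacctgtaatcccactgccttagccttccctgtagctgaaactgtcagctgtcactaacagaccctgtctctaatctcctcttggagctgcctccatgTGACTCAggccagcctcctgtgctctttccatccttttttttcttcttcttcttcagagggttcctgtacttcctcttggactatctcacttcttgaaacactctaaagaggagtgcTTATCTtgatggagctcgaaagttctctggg
P2ry2: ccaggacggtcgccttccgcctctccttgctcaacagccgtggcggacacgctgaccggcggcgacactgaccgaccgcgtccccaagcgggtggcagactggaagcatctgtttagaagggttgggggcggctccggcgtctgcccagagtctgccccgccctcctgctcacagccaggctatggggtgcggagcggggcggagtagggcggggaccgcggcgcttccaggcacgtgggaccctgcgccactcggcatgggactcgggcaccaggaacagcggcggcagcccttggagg
Of 32851 RefSeq promoters of the same length, 7.81% held TGANTCA, 7.51% held TGACGT and 11.2% held AGATAA. The matches describe letters in these windows and no binding was measured. The starts of the Adora3 and P2ry2 windows are the first bases of the annotated transcripts Adora3-201 and P2ry2-201, which carried on average 86.3% and 46.0% of the reads of their genes in gonadal libraries.

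The libraries held 12477671 to 23734940 estimated reads, except for the subcutaneous library of mouse 2846 with 4379954. In that library 28.0% of reads were mitochondrial ribosomal RNA, against 4.64% to 8.74% in the other 11. The sort marker Siglecf did not pass the test in either depot (adjusted p = 0.535 for gonadal and 0.748 for subcutaneous, edgeR). Ptprc, which encodes CD45, was lower in fat (log2 fold change -0.90 in gonadal and -0.85 in subcutaneous, adjusted p = 0.0171 and 0.023, edgeR), and so was Itgam, which encodes CD11b (-0.95 and -1.05, adjusted p = 0.0152 and 0.00972, edgeR). The granule protein genes Prg2 and Epx, which define eosinophils, were low in all groups, with a highest value of 7.69 CPM in any library. Of 6 eosinophil markers, 1 was lower in each depot than in blood and none was higher. Ccr3 was the most abundant of them. It measured 379 to 905.9 CPM in gonadal and 376.1 to 1160 CPM in subcutaneous libraries, and at least 1359 CPM in every blood library. The summed level of the 6 eosinophil markers was lowest in the gonadal library of mouse 2683 and the subcutaneous library of mouse 2846, at 1188 and 967.6 CPM. Over the groups it was 1188 to 2844 CPM in gonadal, 967.6 to 2681 CPM in subcutaneous and 2573 to 2848 CPM in blood libraries. Of 10 macrophage markers, 6 were higher in gonadal and 7 in subcutaneous than in blood samples, with summed levels of 837.4 to 2652 CPM in gonadal, 956.1 to 3160 CPM in subcutaneous and 331.9 to 642.6 CPM in blood libraries. Csf1r was the most abundant of these markers and none was at 0 in a whole group. Csf1r measured 341.2 to 830.7 CPM in gonadal, 328.3 to 829.5 CPM in subcutaneous and 314.4 to 370.2 CPM in blood libraries. It therefore made up much of the sums in blood. The median log2 fold change of the 10 markers was 3.64 in gonadal and 4.01 in subcutaneous samples. The 6 of 8 neutrophil markers that could be tested were lower in each depot, with sums of 184.7 to 406.4 CPM in gonadal, 167.8 to 678.4 CPM in subcutaneous and 2373 to 3699 CPM in blood libraries, mostly Retnlg. In bulk samples, fewer cells of a type and less RNA per cell cannot be told apart.

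All 10 members passed the filter on low counts. Against blood, 2 of 10 were higher and 4 lower in gonadal eosinophils. Of all 15367 genes tested, 27.0% were called in that comparison, 15.4% higher and 11.6% lower. In subcutaneous eosinophils 3 members were higher and 3 lower than in blood, where 26.8% of all genes were called, 15.4% higher and 11.4% lower. The members' median log2 fold change was 0.01 in gonadal and -0.10 in subcutaneous eosinophils, beside 0.08 and 0.07 over all genes. The libraries of the groups did not overlap for 7 of 10 members in each depot, where 36.3% of all genes did not overlap in the gonadal and 29.5% in the subcutaneous comparison. The comparisons share the same 4 blood libraries, so they are not independent of each other.

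**Figure D1:**
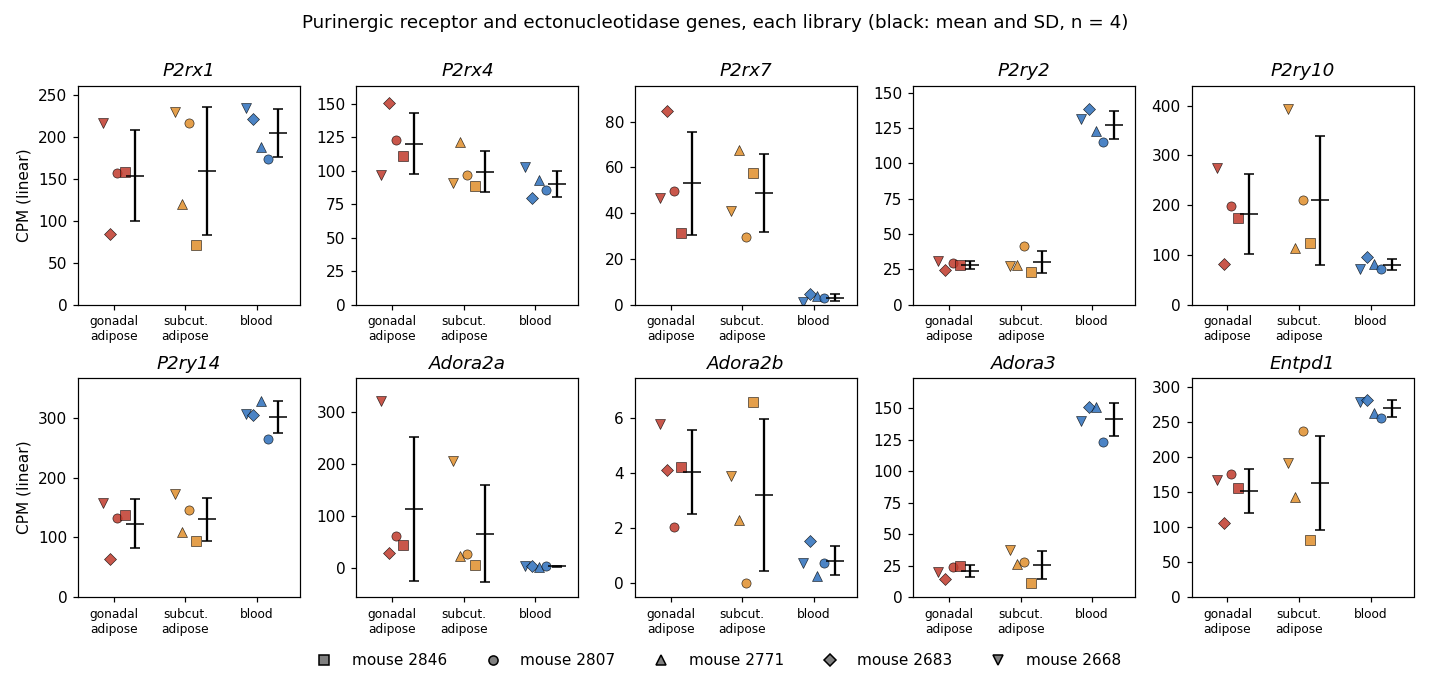
CPM (linear axis) of the 10 genes in each of the 12 libraries, with gonadal adipose, subcutaneous adipose and blood from left to right; each symbol shape is a mouse, and the black dash and bar are the mean and SD of 4 libraries. The fat and blood libraries do not overlap for P2rx7, P2ry2, P2ry14, Adora2a, Adora3 and Entpd1, and mouse 2668 holds the highest Adora2a value in each depot.

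P2rx7 is the channel that opens at high ATP and is known for triggering the inflammasome in macrophages. Its gene lies at chr5:122643911-122691432 on the plus strand (GRCm38). P2rx7 measured 46.7, 84.5, 49.6 and 31.2 CPM in gonadal libraries of mice 2668, 2683, 2807 and 2846. In subcutaneous libraries of mice 2668, 2771, 2807 and 2846 it measured 40.7, 67.8, 29.5 and 57.5 CPM, and in blood libraries of mice 2668, 2683, 2771 and 2807 it measured 0.992, 4.45, 3.71 and 2.67 CPM. Every fat library lay above every blood library. The log2 fold change was 4.16 (SE 0.471, adjusted p = 9.19e-05, edgeR) in gonadal and 4.04 (SE 0.469, adjusted p = 0.000119, edgeR) in subcutaneous eosinophils, which is 17.9 and 16.5 times the blood level. Within an animal the gonadal level was 47.1, 19.0 and 18.6 times that of blood in mice 2668, 2683 and 2807, and the subcutaneous level 41.0, 18.3 and 11.0 times in mice 2668, 2771 and 2807.

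The blood level of P2rx7 rested on 20 to 85 reads per library, and those reads were divided over the transcripts in other shares than in fat. P2rx7-203, which encodes the full-length channel of 595 residues, held on average 76.9% of the gene's reads in gonadal, 81.3% in subcutaneous and 36.6% in blood libraries, the largest mean share in each group. Single libraries held 65.6% to 86.6% in gonadal, 71.4% to 93.9% in subcutaneous and 20.5% to 61.0% in blood. In the blood library of mouse 2668, 67.1% of the reads were assigned to P2rx7-205, a retained intron. P2rx7-201 held 54.5% in the blood library of mouse 2807 and P2rx7-207 held 54% in that of mouse 2683. P2rx7-203 therefore had the largest share of a blood library in mouse 2771 alone. With the average transcript length as an offset the log2 fold changes were 2.36 (adjusted p = 0.0338, edgeR) in gonadal and 2.87 (adjusted p = 0.0157, edgeR) in subcutaneous eosinophils. Counting reads of protein-coding transcripts alone, a setting added after seeing the data, gave 4.66 and 4.52.

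The P2rx7 level was highest in the gonadal library of mouse 2683 and the subcutaneous library of mouse 2771, which also had the highest macrophage marker sums of their groups, 2652 and 3160 CPM. In the fat libraries with the lowest sums of their groups, from mouse 2668 with 837.4 CPM in gonadal and 956.1 CPM in subcutaneous tissue, P2rx7 measured 46.7 and 40.7 CPM. The blood library with the highest sum, from mouse 2807 with 642.6 CPM, had 2.67 CPM of P2rx7. Blood sums were made up in large part by Csf1r, so sums of blood and fat libraries do not compare like with like. The part of macrophage RNA in the P2rx7 result was not tested.

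**Figure D2:**
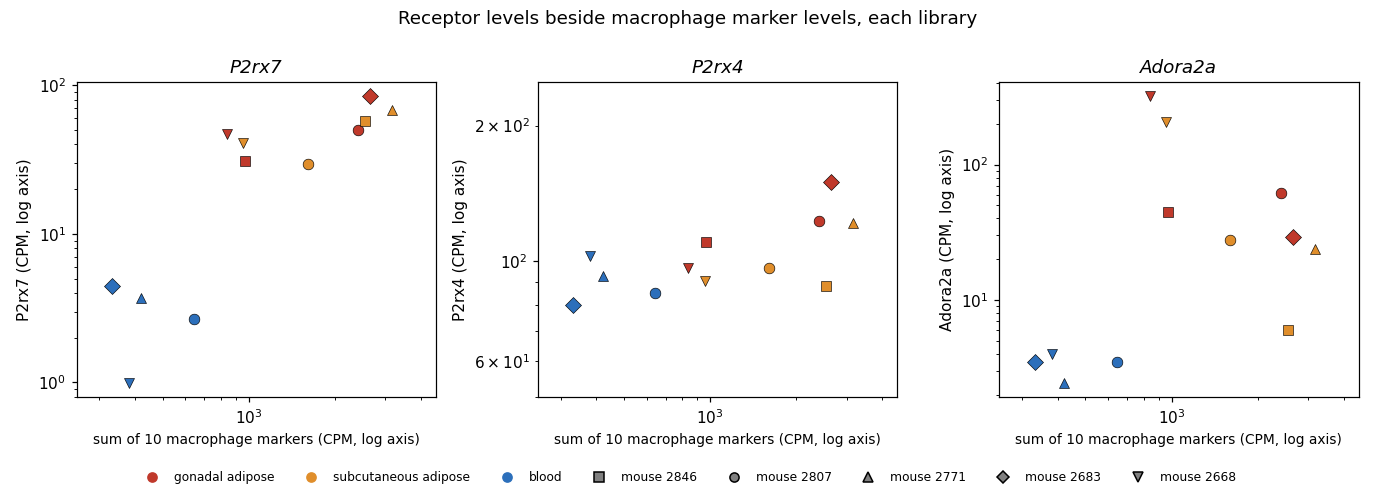
P2rx7, P2rx4 and Adora2a (CPM, log axis) against the summed CPM of 10 macrophage markers (log axis) in each of the 12 libraries; colours are tissues and shapes are mice. P2rx7 and P2rx4 peak in the gonadal library of mouse 2683, with a sum of 2652 CPM, while Adora2a peaks in the gonadal and subcutaneous libraries of mouse 2668, with sums of 837.4 and 956.1 CPM.

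P2rx4, a channel with slow desensitisation that is known from macrophages and microglia, was detected in all libraries and did not pass the test. It averaged 120.2 ± 22.7 CPM in gonadal, 99.3 ± 15.2 CPM in subcutaneous and 90.1 ± 9.87 CPM in blood eosinophils. The gonadal libraries measured 96.9, 150.1, 123 and 111 CPM in mice 2668, 2683, 2807 and 2846, and blood ranged between 79.9 and 103 CPM, so the groups overlapped through mouse 2668. The gonadal log2 fold change of 0.42 (SE 0.163, 95% interval 0.05 to 0.78) missed the threshold (adjusted p = 0.075, edgeR), and the subcutaneous value was 0.14 (interval -0.23 to 0.51, adjusted p = 0.553). Without the gonadal library of mouse 2668 the gonadal value was 0.51 and passed (adjusted p = 0.0458, edgeR), as it did with both fat libraries of that mouse left out (0.51, adjusted p = 0.0467, edgeR). A retained-intron transcript of a single exon, P2rx4-208, held 51.7% of the gene's reads in gonadal, 60.1% in subcutaneous and 44.6% in blood libraries. Protein-coding transcripts carried 36.5%, 29.4% and 42.5% of its reads in gonadal, subcutaneous and blood libraries.

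P2rx1, a fast desensitising channel known from platelets and neutrophils, was the most abundant member per kilobase of exon in blood, at 77.8 ± 10.8 CPM per kb. Its level was 216, 84.1, 156 and 158 CPM in gonadal libraries of mice 2668, 2683, 2807 and 2846, and 229, 120.4, 216 and 71.6 CPM in subcutaneous libraries of mice 2668, 2771, 2807 and 2846. Blood libraries held 174 to 235 CPM. The lowest values came from the gonadal library of mouse 2683 and the subcutaneous library of mouse 2846, which also had the lowest eosinophil marker sums. The same libraries held the lowest values of their depots for P2ry2, P2ry14, Adora2a, Adora3 and Entpd1 too. For P2ry10 this was so in gonadal and for P2rx4 in subcutaneous libraries alone, and for P2rx7 and Adora2b in neither depot. The part of a lower share of eosinophil RNA in these results was not tested. The log2 fold change was -0.41 (95% interval -1.19 to 0.37, adjusted p = 0.409, edgeR) in gonadal and -0.35 (interval -1.13 to 0.42, adjusted p = 0.474) in subcutaneous eosinophils. As a share of the summed TPM of the 3 channels, P2rx7 made up 6.48% to 16.0% in gonadal, 7.04% to 46.4% in subcutaneous and 0.377% to 6.52% in blood libraries. The highest share, 46.4%, came from the shallow subcutaneous library of mouse 2846.

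P2ry2, a Gq-coupled receptor for ATP and UTP known to guide leukocyte migration, was the member with the smallest adjusted p-value. Its gene lies at chr7:100996568-101012866 on the minus strand. P2ry2 measured 30.8, 24.3, 29.6 and 28.1 CPM in gonadal libraries of mice 2668, 2683, 2807 and 2846. In subcutaneous libraries of mice 2668, 2771, 2807 and 2846 it measured 27.2, 28.3, 41.2 and 23.1 CPM, and in blood libraries of mice 2668, 2683, 2771 and 2807 it measured 132, 138, 123 and 115 CPM. The highest fat library stood at 41.2 CPM and the lowest blood library at 115 CPM. P2ry2 was 4.51 times lower in gonadal eosinophils (log2 fold change -2.17, SE 0.178, adjusted p = 8.73e-06, edgeR). It was 4.23 times lower in subcutaneous eosinophils (log2 fold change -2.08, SE 0.178, adjusted p = 9.89e-06, edgeR).

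P2ry14, the receptor for UDP-sugars such as UDP-glucose, was lower in fat as well. Its level was 158, 63.9, 132 and 137 CPM in gonadal libraries of mice 2668, 2683, 2807 and 2846. It was 172, 108, 146 and 93.4 CPM in subcutaneous libraries of mice 2668, 2771, 2807 and 2846, against 307, 305, 329 and 265 CPM in blood libraries of mice 2668, 2683, 2771 and 2807. No fat library reached the lowest blood library. The log2 fold change was -1.3 (SE 0.261, adjusted p = 0.0036, edgeR) in gonadal and -1.21 (SE 0.261, adjusted p = 0.00541, edgeR) in subcutaneous eosinophils. A single-exon retained-intron transcript, P2ry14-204, held 45.2% of reads in gonadal, 44.8% in subcutaneous and 56.0% in blood libraries. With protein-coding transcripts alone the subcutaneous change was -0.79 and no longer passed (adjusted p = 0.0512, edgeR). P2ry14 lies within Med12l on the opposite strand, without shared exonic bases, and Med12l held 7.0 to 24.2 CPM in gonadal, 12.3 to 22.1 CPM in subcutaneous and 23.7 to 30.5 CPM in blood libraries.

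Neutrophil markers were lower in fat than in blood together with P2ry2, P2ry14 and Adora3, as the sums above show. The part of neutrophil RNA in these results was not tested.

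P2ry10, a receptor for lysophosphatidylserine that is known from lymphoid cells and eosinophils, had the highest mean of the members per kilobase of exon in fat. It reached 61.1 ± 26.9 CPM per kb in gonadal and 70.5 ± 43.6 CPM per kb in subcutaneous, against 26.8 ± 3.73 CPM per kb in blood eosinophils. P2rx1 lay within that spread, at 58.5 ± 20.6 CPM per kb in gonadal and 60.7 ± 29 CPM per kb in subcutaneous eosinophils. By TPM P2ry10 ranked 5 in gonadal and 3 in subcutaneous eosinophils. The gonadal libraries of mice 2668, 2683, 2807 and 2846 measured 275, 80.8, 198 and 174 CPM. The subcutaneous libraries of mice 2668, 2771, 2807 and 2846 measured 394, 113, 210.4 and 123 CPM, and the blood libraries of mice 2668, 2683, 2771 and 2807 measured 71.4, 95.2, 81.2 and 72.0 CPM. All subcutaneous libraries lay above blood, while the gonadal library of mouse 2683 lay inside the blood range. The log2 fold change was 1.19 (SE 0.412, adjusted p = 0.0502, edgeR) in gonadal eosinophils, which missed the threshold, and 1.40 (SE 0.414, adjusted p = 0.0272, edgeR) in subcutaneous ones. With mouse as a block the subcutaneous value was 1.15 and did not pass (adjusted p = 0.0948, edgeR). Leaving out the subcutaneous library of mouse 2668 gave 0.91 (adjusted p = 0.0701, edgeR), and without the gonadal library of mouse 2683 the gonadal value was 1.41 and passed (adjusted p = 0.0247, edgeR). The subcutaneous call was also lost without any single blood library (adjusted p = 0.0522 to 0.0787, edgeR) and with no filter on low counts (adjusted p = 0.0736, edgeR). The gonadal value passed with DESeq2 (1.19, adjusted p = 0.018) and in fits that left out the subcutaneous library of mouse 2846, 2771 or 2668 (adjusted p = 0.0419, 0.047 and 0.0179, edgeR). With both fat libraries of mouse 2668 left out it also passed (0.93, adjusted p = 0.045, edgeR). Its paralog P2ry10b averaged 12.2 CPM in gonadal, 9.49 CPM in subcutaneous and 14.3 CPM in blood eosinophils and was not called, and reads of shared sequence could be split between the pair. Of 7 T cell markers, 3 were higher in subcutaneous and 4 lower in gonadal eosinophils than in blood, with sums of 1.77 to 5.33 CPM in gonadal, 25.3 to 219 CPM in subcutaneous and 9.22 to 30.1 CPM in blood libraries. Cd4 was the most abundant of them over all libraries. Of 5 B cell markers, all were lower in gonadal eosinophils and none was called in subcutaneous ones, with sums of 2.2 to 3.24 CPM in gonadal, 8.90 to 50.4 CPM in subcutaneous and 14.8 to 175.5 CPM in blood libraries. Ms4a1 was the most abundant of these over all libraries. No marker of either list was at 0 in a whole group. The subcutaneous library of mouse 2668, where P2ry10 was highest, had the lowest sum of its group for each list. The part of lymphocyte RNA in the P2ry10 result was not tested.

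**Figure D3:**
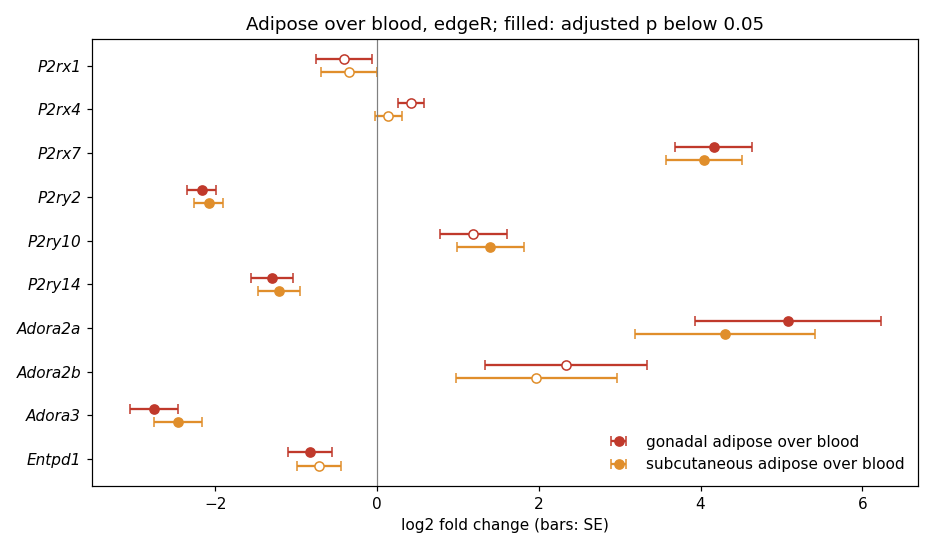
Log2 fold change with SE (bars) of each gene in gonadal (red) and subcutaneous (orange) over blood eosinophils; filled points have an adjusted p below the threshold in edgeR's test. P2rx7 and Adora2a lie far to the right and P2ry2, P2ry14 and Adora3 to the left in each depot.

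Adora3, the Gi-coupled adenosine receptor known from eosinophils and mast cells, was the adenosine receptor of blood eosinophils. Its gene is annotated at chr3:105870858-105908926 on the plus strand. Adora3 measured 19.9, 14.5, 24.2 and 24.8 CPM in gonadal libraries of mice 2668, 2683, 2807 and 2846. In subcutaneous libraries of mice 2668, 2771, 2807 and 2846 it measured 37.4, 26.0, 27.6 and 10.8 CPM, and in blood libraries of mice 2668, 2683, 2771 and 2807 it measured 139.7, 151, 151 and 123 CPM. The groups were far apart, with 37.4 CPM as the highest fat value and 123 CPM as the lowest blood value. Adora3 was 6.79 times lower in gonadal eosinophils (log2 fold change -2.76, SE 0.301, adjusted p = 6.19e-05, edgeR). It was 5.49 times lower in subcutaneous eosinophils (log2 fold change -2.46, SE 0.298, adjusted p = 0.000143, edgeR). The gene shares 779 of 3729 exonic bases with Tmigd3 on the same strand, so reads there could be split between them. Tmigd3 was at 2.47 to 8.21 CPM in gonadal, 6.19 to 16.6 CPM in subcutaneous and 6.83 to 14.7 CPM in blood libraries. The 8 markers of mast cells and basophils summed to 0.731 to 4.95 CPM in gonadal, 0 to 48.8 CPM in subcutaneous and 11.2 to 22.1 CPM in blood libraries. Kit was the most abundant of them and the 1 that could be tested. Kit measured 0.731 to 4.32 CPM in gonadal, 0 to 9.03 CPM in subcutaneous and 10.5 to 22.1 CPM in blood libraries. The fat and blood libraries did not overlap for Kit, as for Adora3, but its log2 fold changes of -2.45 and -1.66 did not pass (adjusted p = 0.053 and 0.16, edgeR). Fcer1a and Mcpt8 were at 0 in all groups, and Mcpt4 and Cma1 in gonadal and blood libraries. The part of such cells in the Adora3 result was not tested.

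Adora2a, the Gs-coupled receptor through which adenosine restrains many leukocytes, was low in blood and variable in fat. Adora2a measured 320.2, 29.1, 61.6 and 44.3 CPM in gonadal libraries of mice 2668, 2683, 2807 and 2846. In subcutaneous libraries of mice 2668, 2771, 2807 and 2846 it measured 205, 23.7, 27.7 and 5.99 CPM, and in blood libraries of mice 2668, 2683, 2771 and 2807 it measured 4.02, 3.46, 2.44 and 3.50 CPM. Every fat library exceeded every blood library, but the subcutaneous library of mouse 2846 did so by a small margin and on 20 reads. The log2 fold change was 5.08 (SE 1.15, adjusted p = 0.00874, edgeR) in gonadal and 4.3 (SE 1.11, adjusted p = 0.0165, edgeR) in subcutaneous eosinophils. Mouse 2668 held the highest value in each depot by a wide margin. Without its 2 fat libraries, a setting added after seeing the data, the log2 fold changes were 3.75 (adjusted p = 0.000387, edgeR) and 2.55 (adjusted p = 0.0029, edgeR). Without the blood library of mouse 2771 the subcutaneous value was 4.17 and just missed the threshold (adjusted p = 0.0509, edgeR). Macrophage markers were higher in fat than in blood together with Adora2a, 6 of 10 in gonadal and 7 of 10 in subcutaneous eosinophils, while among the libraries of each depot their sum was lowest in mouse 2668, where Adora2a was highest. The part of macrophage RNA in the Adora2a result was not tested. Within an animal the gonadal level was 79.7, 8.42 and 17.6 times that of blood in mice 2668, 2683 and 2807, and the subcutaneous level 51.1, 9.71 and 7.92 times in mice 2668, 2771 and 2807.

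Adora2b, the Gs-coupled receptor of low affinity for adenosine, had the lowest mean of the members in every group. It measured 5.79, 4.12, 2.02 and 4.21 CPM in gonadal libraries of mice 2668, 2683, 2807 and 2846, and 3.90, 2.29, 0 and 6.59 CPM in subcutaneous libraries of mice 2668, 2771, 2807 and 2846. Blood libraries ranged between 0.235 and 1.52 CPM. The gonadal libraries lay above all blood libraries, but the log2 fold change of 2.34 (SE 1.0, adjusted p = 0.0995, edgeR) did not pass. The subcutaneous value was 1.97 (SE 1.0, adjusted p = 0.162, edgeR). With DESeq2 the gonadal value passed (2.36, adjusted p = 0.036). Both values passed when the subcutaneous library of mouse 2807, which held no read of the gene, was left out, at 2.35 (adjusted p = 0.0191, edgeR) in gonadal and 2.39 (adjusted p = 0.0226, edgeR) in subcutaneous eosinophils. In that library a count of 0 allows up to 3 reads, and such limits cover counting error only.

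The share of Adora2a among the adenosine receptors was larger in every fat library than in any blood library. Of the summed TPM of Adora2a, Adora2b and Adora3, Adora2a took 66.5% to 94.6% in gonadal and 20.1% to 87.9% in subcutaneous libraries, and 2.25% to 6.49% in blood libraries. Adora3 took 3.98% to 28.0% in gonadal, 10.7% to 50.5% in subcutaneous and 92.9% to 97.5% in blood libraries. The fat libraries in which Adora2a was not the larger of this pair were the subcutaneous ones of mice 2807 and 2846. In the shallow library of mouse 2846 the shares of Adora2a, Adora2b and Adora3 were 20.1%, 31.9% and 48.0%.

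**Figure D4:**
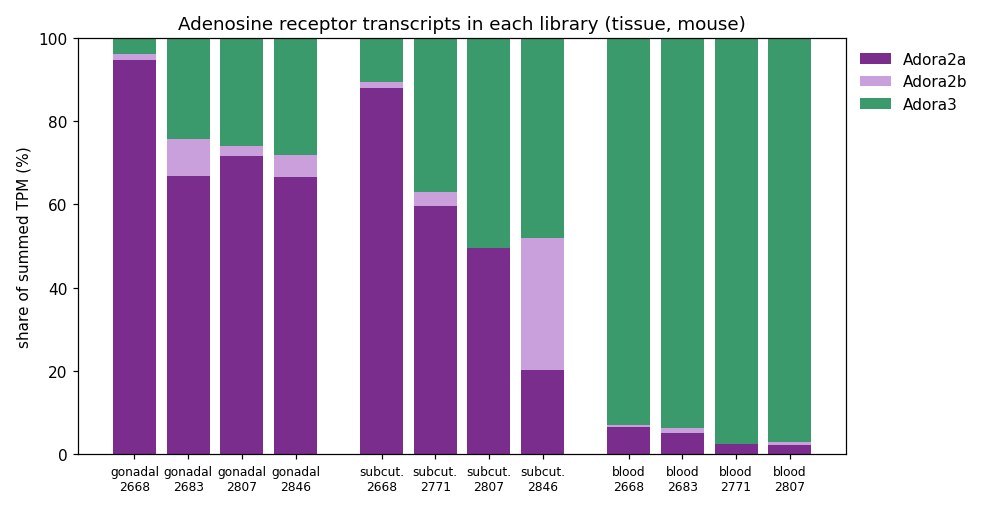
Share of the summed TPM of Adora2a, Adora2b and Adora3 (%, stacked to the whole) in each library, with gonadal, subcutaneous and blood libraries from left to right and the mouse below. Adora3 fills 92.9% to 97.5% of the blood bars, and Adora2a fills 66.5% to 94.6% of the gonadal bars.

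Entpd1, the enzyme that removes phosphates from extracellular ATP and ADP, had the highest mean TPM of the members in every group. In the gonadal library of mouse 2683 P2rx4 stood above it, at 31.9 against 26.3 TPM. In the subcutaneous library of mouse 2668 P2ry10 and Adora2a did, at 41.6 and 41.1 against 39.1 TPM. In each fat depot its mean ± SD overlapped that of the next members. Its TPM averaged 52.5 ± 27.6 in gonadal, 39.3 ± 22.0 in subcutaneous and 74.5 ± 19.0 in blood eosinophils. Short transcripts weigh more in TPM, and by CPM per kilobase of exon the gene ranked 4 in gonadal, 3 in subcutaneous and 2 in blood eosinophils. Entpd1 measured 168, 107, 176 and 157 CPM in gonadal libraries of mice 2668, 2683, 2807 and 2846. In subcutaneous libraries of mice 2668, 2771, 2807 and 2846 it measured 192, 143, 238 and 80.9 CPM, and in blood libraries of mice 2668, 2683, 2771 and 2807 it measured 279, 282, 264 and 257 CPM. The blood libraries were close together and all above the fat libraries. The log2 fold change of -0.83 (SE 0.268, adjusted p = 0.036, edgeR) in gonadal eosinophils passed the test, and -0.72 (SE 0.268, adjusted p = 0.0613, edgeR) in subcutaneous eosinophils did not. With mouse as a block the gonadal value was -0.77 (adjusted p = 0.0808, edgeR), and with the length offset -0.64 (adjusted p = 0.157, edgeR). Leaving out any single gonadal or blood library gave adjusted p-values of 0.0516 to 0.0893, so the gonadal call was lost each time, as it was with both fat libraries of mouse 2668 left out (-0.87, adjusted p = 0.058, edgeR). In subcutaneous eosinophils the call was gained with DESeq2 (-0.70, adjusted p = 0.0451), with the length offset (-0.97, adjusted p = 0.0372, edgeR) and without the library of mouse 2807 (-0.96, adjusted p = 0.0214, edgeR) or the gonadal library of mouse 2683 (-0.75, adjusted p = 0.0493, edgeR).

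Between the depots no member was called, in gonadal over subcutaneous eosinophils, where 0.00651% of all genes were called (1 gene, lower, while 1234 genes had an unadjusted p below 0.05; DESeq2 called 41 higher and 126 lower). The members' log2 fold changes ran between -0.31 for Adora3 and 0.78 for Adora2a, with a median of -0.07 beside -0.01 over all genes. Their adjusted p-values were 0.711 to 0.978 (edgeR). The intervals were wide for Adora2a, -1.40 to 2.96 on the log2 scale, and narrower for P2ry2, -0.48 to 0.30, and P2rx4, -0.09 to 0.64. For no member did all gonadal libraries lie above or below all subcutaneous ones, and 3.62% of all genes showed that.

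By TPM, which is per length, the blood order after Entpd1 was P2ry14 (38.3 ± 11.1), P2rx1 (31.2 ± 7.94), P2ry2 and Adora3 (22.3 each), P2rx4 (20.1 ± 7.32) and P2ry10 (9.09 ± 1.59), with P2rx7 (1.07), Adora2a (0.914) and Adora2b (0.137) last. From P2ry14 to P2rx4 neighbours overlapped in mean ± SD. In gonadal eosinophils Adora2a (28.0 ± 38.5), P2rx1 (27.7 ± 12.9), P2rx4 (25.8 ± 4.13), P2ry10 (22.9 ± 12.2) and P2ry14 (18.6 ± 7.44) followed Entpd1 and overlapped in spread, ahead of P2rx7 (6.97 ± 2.95), P2ry2 (5.15 ± 1.3) and Adora3 (3.43 ± 0.936). The subcutaneous order had P2rx1 (27.7 ± 19.2), P2ry10 (24.6 ± 15.4), P2rx4 (18.5 ± 7.83), P2ry14 (17.7 ± 8.45) and Adora2a (13.6 ± 18.6) after Entpd1, then P2rx7 (8.86 ± 4.39).

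Of 65 other genes of nucleotide and adenosine signalling, 50 could be tested, and 8 were higher and 4 lower in gonadal, 9 higher and 4 lower in subcutaneous than in blood eosinophils, beside 27.0% and 26.8% of all genes called. None was called between the depots. Their median log2 fold change was 0.20 in gonadal and 0.47 in subcutaneous eosinophils. None of the 4 other P2X genes had enough reads to be tested. Of 5 other P2Y genes tested, P2ry6 was the 1 that was higher, the receptor for UDP. P2ry6 averaged 28.2 ± 17.8 CPM in gonadal, 17.6 ± 11.8 CPM in subcutaneous and 2.81 ± 0.977 CPM in blood eosinophils, with log2 fold changes of 3.33 (adjusted p = 0.00344, edgeR) and 2.63 (adjusted p = 0.0109, edgeR). Single libraries held 7.98 to 51.3 CPM in gonadal, 4.4 to 29.05 CPM in subcutaneous and 1.44 to 3.68 CPM in blood. Macrophage markers were higher in fat together with P2ry6, and the part of macrophage RNA in the P2ry6 result was not tested.

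The remaining adenosine receptor gene, Adora1, was under 0.16 CPM on average in each group and was not tested. Of 6 other ectonucleotidase genes tested, 1 passed in subcutaneous eosinophils and none in gonadal ones, beside 26.8% and 27.0% of all genes called. That gene was Entpd2, which hydrolyses ATP to ADP, with 5.53 ± 7.87 CPM in subcutaneous eosinophils and no read in any blood library (adjusted p = 0.0314, edgeR). Single subcutaneous libraries held 0 to 16.8 CPM of Entpd2, so the groups overlapped at 0. Nt5e, or CD73, the enzyme that turns AMP into adenosine, averaged 0.504 CPM in gonadal, 2.01 CPM in subcutaneous and 1.57 CPM in blood eosinophils and was not called (adjusted p = 0.357 and 0.865, edgeR).

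Of 9 genes tested for adenosine uptake and clearance, 2 were higher in each depot and none was lower, beside 27.0% and 26.8% of all genes called. Slc29a1, the nucleoside transporter ENT1, averaged 28.5 ± 8.12 CPM in gonadal, 27.5 ± 7.71 CPM in subcutaneous and 8.76 ± 2.23 CPM in blood eosinophils (log2 fold change 1.70 and 1.66, adjusted p = 0.00096 and 0.00125, edgeR). Slc29a3, a nucleoside transporter of lysosomes, was higher in gonadal eosinophils (1.3, adjusted p = 0.0408, edgeR), with 0.67 in subcutaneous ones (adjusted p = 0.265). Slc29a2, or ENT2, was higher in subcutaneous eosinophils at 5.20 ± 5.74 CPM, against 0.236 CPM in blood (adjusted p = 0.0375, edgeR).

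Of 5 genes tested for nucleotide release, 1 was higher and 1 lower in each depot, beside 27.0% and 26.8% of all genes called. Calhm2, a member of the calcium homeostasis modulator channel family, was at 18.7 ± 3.29 CPM in gonadal, 18.6 ± 3.64 CPM in subcutaneous and 63.8 ± 2.0 CPM in blood eosinophils (log2 fold change -1.77 in each, adjusted p = 3.41e-05 and 3.7e-05, edgeR). Gja1, the gap junction protein connexin 43, was higher, at 3.48 ± 1.37 CPM in gonadal and 9.84 ± 9.42 CPM in subcutaneous against 0.118 CPM in blood eosinophils (adjusted p = 0.0118 and 0.00392, edgeR). Gja1 is also abundant in fibroblasts, of whose 7 markers 6 were higher in each depot. Their sums were 157 to 495 CPM in gonadal, 253 to 4130 CPM in subcutaneous and 122 to 204 CPM in blood libraries. The 4130 CPM came from the shallow subcutaneous library of mouse 2846, and the other subcutaneous libraries held 253 to 415 CPM. Col3a1, the most abundant of these markers, measured 35.4 to 224.6 CPM in gonadal, 75.9 to 1800 CPM in subcutaneous and 0.0524 to 5.05 CPM in blood libraries. The part of fibroblast RNA in the Gja1 result was not tested.

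Of 25 genes for G proteins and cyclic AMP signalling, all tested, 4 were higher and 3 lower in each depot, in part different genes. Over all genes 27.0% were called in gonadal and 26.8% in subcutaneous eosinophils. Crem, which encodes a cyclic AMP responsive transcription factor and repressor, averaged 16.4 ± 7.81 CPM in gonadal, 36.1 ± 14.7 CPM in subcutaneous and 3.0 ± 0.741 CPM in blood eosinophils (log2 fold change 2.44 and 3.59, adjusted p = 0.00105 and 0.000102, edgeR). Pde4b, a phosphodiesterase that degrades cyclic AMP, averaged 525 ± 227 CPM in gonadal, 510.1 ± 217 CPM in subcutaneous and 212 ± 17.3 CPM in blood eosinophils (1.31 and 1.27, adjusted p = 0.0165 and 0.0193, edgeR). Creb1, the activator of the same element, was lower (-0.71 and -0.61, adjusted p = 0.00302 and 0.00741, edgeR), and so was Gnaq, the G protein subunit that couples receptors to phospholipase C (-0.54 and -0.49, adjusted p = 0.0113 and 0.0178, edgeR). Prkar2a, a regulatory subunit of protein kinase A, was higher (1.10, adjusted p = 0.0165, edgeR) and Prkacb, a catalytic subunit, lower (-0.53, adjusted p = 0.0231, edgeR) in gonadal eosinophils. Adcy6, an adenylyl cyclase, was higher (3.77, adjusted p = 0.0366, edgeR) and Gnai2, the inhibitory G protein subunit, lower (-0.65, adjusted p = 0.026, edgeR) in subcutaneous eosinophils. Adcy6 averaged 11.2 ± 12.4 CPM there and 0.805 CPM in blood. Adcy7, another adenylyl cyclase, was higher in each depot (0.83 and 0.50, adjusted p = 0.00351 and 0.041, edgeR). It averaged 367 CPM in gonadal, 292 CPM in subcutaneous and 207 CPM in blood eosinophils, and was not followed under the alternative settings.

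The calls of P2ry6, Slc29a1, Gja1, Calhm2, Crem and Creb1 held in each depot under all 22 alternatives. With mouse as a block, calls were lost for Entpd2 (7.33, adjusted p = 0.288), Slc29a2 (5.07, adjusted p = 0.0611), Adcy6 (3.43, adjusted p = 0.0737) and Gnai2 (-0.62, adjusted p = 0.0578) in subcutaneous eosinophils, all by edgeR. In gonadal eosinophils the block ended the calls of Slc29a3 (1.21, adjusted p = 0.0515), Prkar2a (1.17, adjusted p = 0.0509) and Prkacb (-0.43, adjusted p = 0.0611, edgeR). Each of these 7 calls also failed in fits that left out single libraries of blood, in which the adjusted p-values reached 0.0823 for Slc29a2 and 0.104 for Slc29a3. The subcutaneous library of mouse 2846 decided the calls of Entpd2, Slc29a2, Adcy6 and Gnai2 (adjusted p = 0.054, 0.103, 0.0947 and 0.0603 without it, edgeR), as did the subcutaneous library of mouse 2771 (0.054, 0.0512, 0.0628 and 0.0732). The gonadal library of mouse 2683 decided those of Slc29a3 and Prkar2a (0.148 and 0.0563, edgeR). Without the gonadal library of mouse 2846 the calls of Prkacb, Slc29a3, Slc29a2 and Adcy6 were lost (0.0598, 0.0658, 0.0524 and 0.0519, edgeR). Slc29a3 was also lost without the gonadal or the subcutaneous library of mouse 2807 (0.0533 and 0.0525, edgeR). Pde4b lost its call without the blood library of mouse 2668 in each depot (adjusted p = 0.0577 and 0.064, edgeR), and in subcutaneous eosinophils also without the blood library of mouse 2771 or 2683 (0.0501 and 0.0513, edgeR). Gnaq lost it in subcutaneous eosinophils without the blood library of mouse 2771 (0.0615). With the length offset Gnaq was not called in either depot (adjusted p = 0.134 and 0.139, edgeR), nor were Prkacb (0.226) and Slc29a3 (0.207) in gonadal eosinophils. Slc29a2 was called in gonadal eosinophils as well when the blood library of mouse 2668 was left out (7.22, adjusted p = 0.00968, edgeR), against 2.28 with all libraries. With all libraries it averaged 1.18 CPM in gonadal and 0.236 CPM in blood eosinophils, with at most 0.943 CPM in a blood library. The value of 7.22 therefore rests on a blood level at the floor. Entpd2 and Adcy6 gained a gonadal call with DESeq2 (adjusted p = 0.0109 and 0.026). Entpd2 also gained it without the gonadal library of mouse 2846 (0.0412), without the subcutaneous library of mouse 2846, 2807 or 2668 (0.0393, 0.0481 and 0.0289) and with both fat libraries of mouse 2668 left out (0.0495, edgeR). Adcy6 also gained it with the blood library of mouse 2807 and the subcutaneous one of mouse 2846 left out together (0.0414, edgeR). Prkar2a gained a subcutaneous call with the length offset (1.41, adjusted p = 0.00775, edgeR), with that same pair left out (1.14, adjusted p = 0.00675, edgeR), and without either of the pair alone (adjusted p = 0.0279 without the blood and 0.0476 without the subcutaneous library, edgeR).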

How the data were processed

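Sorted eosinophils gave 12 libraries of stranded total RNA (SMARTer Pico chemistry, per the labels' protocols). The submitters' processing notes name Salmon 1.6.0, Trim Galore 0.6.4, DESeq2 1.30.1 and the build mm10. The deposited tables give estimated counts (expected counts, which need not be whole), TPM and effective lengths per transcript, per the file headers. The deposited TPM values were summed per gene and used to describe levels and shares. Strand setting and annotation release are not given in the sources used here.

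GENCODE M21 (GRCm38, the assembly of mm10) supplied the gene of each transcript. In each library 139791 transcripts had a match. The 1201 without a match held 0.351% to 0.538% of reads and were left out. The expected counts were summed over transcripts, retained introns included, and rounded. edgeR 4.0.16 in R 4.3.3 (quasi-likelihood with robust settings, TMM, filterByExpr by group) was fitted to all 12 libraries with group alone, with Benjamini-Hochberg adjustment over 15367 genes. The common biological coefficient of variation was 0.545. The SE is the size of the log2 fold change divided by the square root of F, and 95% intervals use 9 residual degrees of freedom. The test was also run on simulated counts with a single dispersion for all genes. Those counts held no outlying animal and no change in low genes, so the run does not cover such cases. Depth was 4379954 to 23734940 estimated reads, so low genes are least precise in the shallowest library. PCR reads without molecular identifiers are not independent molecules.

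Samples were grouped by the tissue in the labels. Mouse numbers mark the animal and so pair samples: deviations from group means correlated at a mean of 0.0842 over 9 same-mouse pairs (-0.111 to 0.358) and -0.0188 over 39 pairs of different mice. The model without mouse was the main one. No sequencing batch is named. The 10 members, the 75-gene signalling lists and the marker lists were chosen with earlier results of these data known. Besides all members, the text names up to 3 called genes per list, direction and comparison with the largest change and at least 5 CPM in the higher group, the sort markers and the most abundant marker of a list. Nt5e, Adora1, P2ry10b, Adcy7, Prg2, Epx, Fcer1a, Mcpt8, Mcpt4 and Cma1 were named after their values were seen. There were 22 alternatives: other scalings and filters, DESeq2 1.42.0, mouse as a block, a length offset, libraries left out, and, added after seeing the data, protein-coding transcripts alone and the fat libraries of mouse 2668 left out. Promoter sequences are from RefSeq, matched by symbol for 9 of the 10 members.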

Additional observations from a re-analysis of the deposited data

Results flagged for a closer look

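Adora2a stood out in the same animal in each fat depot. In gonadal libraries it was 320.2 CPM in mouse 2668 and 29.1 to 61.6 CPM in the other 3 mice. In subcutaneous libraries it was 205.2 CPM in mouse 2668 and 5.99 to 27.7 CPM in the other 3 mice. In each depot the gap between mouse 2668 and the next library was above Dixon's 95% critical value for 4 samples. The blood library of this mouse held 4.02 CPM, beside 2.44 to 3.50 CPM in the other 3 blood libraries. Chance flags about 1 in 20 groups, and 30 groups of the members were looked at. Without both fat libraries of mouse 2668 Adora2a was still called higher in each depot, with log2 fold changes of 3.75 in gonadal and 2.55 in subcutaneous eosinophils.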

How the results depend on the processing

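No called member changed direction under the 22 alternatives. Over the 10 members in 3 comparisons, 624 results kept their side of the threshold, 21 lost it and 15 gained it. P2rx7, P2ry2, P2ry14 and Adora3 kept their calls in each depot, except P2ry14 in subcutaneous eosinophils with protein-coding transcripts alone. The calls of Entpd1, P2ry10, Adora2b and P2rx4 depended on the setting, as did Adora2a in subcutaneous eosinophils, which was not called without a filter on low counts (4.32, adjusted p = 0.0549, edgeR). The cause was not tested. With mouse as a replicate block the calls of Entpd1 in gonadal (-0.77) and P2ry10 in subcutaneous eosinophils (1.15) were lost, and no other member's call changed. With no filter, 1 member was called higher in subcutaneous eosinophils instead of 3. With DESeq2, 4 members and 14 other signalling genes were higher in gonadal eosinophils, and between depots 41 genes were higher and 126 lower in gonadal ones. The block left 5 other signalling genes higher in subcutaneous eosinophils and 0 genes lower between depots, and the length offset left 2 other signalling genes lower in gonadal ones. With the blood library of mouse 2807 and the subcutaneous one of mouse 2846 left out together, 13 other signalling genes were higher and 7 lower in gonadal eosinophils, and 0 genes were lower between depots. Without both fat libraries of mouse 2668, 4 members were higher in gonadal eosinophils and 3 genes lower between depots. With protein-coding transcripts alone, 1069 genes were lower in subcutaneous eosinophils and 0 between depots.

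Leaving out single libraries, 1546 to 2925 genes were higher in gonadal and 1566 to 2495 in subcutaneous eosinophils than in blood. Between depots 0 to 1 genes were higher and 0 to 7 lower. The members higher numbered 2 to 3 in gonadal and 1 to 4 in subcutaneous eosinophils, and those lower 3 to 4 in each. Other signalling genes higher numbered 6 to 14 in gonadal and 4 to 10 in subcutaneous eosinophils, and 3 to 7 were lower in gonadal ones. Low genes such as Adora2b, with 0 to 105 reads in a library, are limited by depth. Within a group the labels give separate animals, but the groups share animals, and 4 libraries a group limit the precision.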

Other observations

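Adora2a was not the only gene that was high in mouse 2668 in each depot. Of 15367 genes tested, 9 stood apart upward in that mouse in each of its fat libraries by the same gap to the next library, 6 of them above 20 CPM. Chosen after their values were seen, these were Adora2a, Cited2, Tmem64, Fbl, Rtn4ip1 and Nup205. Cited2 measured 298 CPM in the gonadal and 317 CPM in the subcutaneous library of mouse 2668, at most 105 CPM in the other fat libraries and 52.8 CPM in the blood library of the same mouse. The same count was 1 for mouse 2807 and 22 for mouse 2846.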
